A study of Mus musculus with 2 samples.

Results

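The genes described here are the mouse chemokines and growth factor that draw neutrophils out of blood and marrow, with their receptors. They were taken by symbol as a fixed list of 8 of the 32285 genes in the deposited count matrices. The ligands are Cxcl1, Cxcl2, Cxcl3, Cxcl5 and Ppbp, their shared receptor is Cxcr2, and Csf3 and Csf3r encode granulocyte colony-stimulating factor (G-CSF) and its receptor. All 8 symbols were found once in each matrix.

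Chemokines of this family carry a Glu-Leu-Arg motif and signal through Cxcr2, a G-protein coupled receptor on neutrophils. Epithelial cells, fibroblasts, endothelium and myeloid cells release them on stimulation by interleukin 1, tumour necrosis factor or interleukin 17, largely through NF-kB. G-CSF is made by many of the same cells and acts through Csf3r, a cytokine receptor that signals through Jak kinases and Stat3, to raise neutrophil output from the marrow. In skin tumours, neutrophils that arrive by this route are a regular part of the stroma.

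Whole squamous tumours of mouse dorsal skin were dissociated and profiled by droplet single-cell RNA-seq with 3' UMI counting, in 1 library per group. Eed iKO-D came from K14CrERT2;Eed flox/flox mice, in which Cre is expressed from the keratin 14 promoter and Eed, a core subunit of Polycomb repressive complex 2, is floxed. 4OH-tamoxifen at 20 mg/ml was put on the back skin for 4 days from postnatal day 50, and the carcinogen DMBA was applied weekly for up to 20 weeks. Ctrl-D came from Eed flox/flox mice given ethanol and the same DMBA schedule, and both groups were collected at 5 months. Genotype, tamoxifen and library differ together between the groups and cannot be told apart. The number of animals behind each library is not given in the labels, so no p-value is given, and every interval covers counting error at 95% and nothing else.

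After cell filtering, Eed iKO-D held 21484 cells with a median of 3191 UMIs and Ctrl-D held 7522 cells with a median of 13199 UMIs. Although the labels call the cells epidermal cancer cells, markers of stromal and immune cells were present, and cells were put into classes by fixed marker lists that held none of the 8 genes. The gates gave 4074 keratinocyte-like cells in Eed iKO-D and 4443 in Ctrl-D, 2395 fibroblast-like cells in Eed iKO-D and 283 in Ctrl-D, and 711 neutrophil-like cells in Eed iKO-D and 108 in Ctrl-D. Macrophage- or monocyte-like cells numbered 805 in Eed iKO-D and 45 in Ctrl-D. Neutrophil-like cells were 8.14% of gated cells in Eed iKO-D and 1.86% in Ctrl-D. Left without a class were 59.3% of kept cells in Eed iKO-D, with a median of 2447 UMIs, and 22.7% in Ctrl-D, with a median of 9329 UMIs. Of the 12746 such cells in Eed iKO-D, 8465 lay in 1 cluster with 0 cells from Ctrl-D. Its median keratinocyte marker score was 0.124 and its median fibroblast score 0.0270, where the keratinocyte gate asked for a 10-fold lead. The gated Eed iKO-D keratinocytes thus leave out many keratinocyte-scoring cells, and the shares of gated cells depend on this loss. The libraries shared 49 cell barcodes. Eed itself was at 45.9 CPM (UMIs per 1000000 UMIs of the class) in Eed iKO-D keratinocytes and 52.4 CPM in Ctrl-D keratinocytes, but 3' reads may lie outside the deleted part of the gene, so this level does not check the deletion.

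Free RNA in the droplets differed between the libraries. An expected free RNA level is plotted for every member and class and printed beside most class levels below, and was not computed for subsets. This is the CPM a class would show if its Krt5 and Krt14 UMIs (for keratinocytes, its Col1a1 and Col3a1 UMIs) all came from a pool with the make-up of the whole library. By this measure free RNA was 2.40% of keratinocyte UMIs in Eed iKO-D and 0.545% in Ctrl-D, 7.15% of fibroblast UMIs in Eed iKO-D and 3.72% in Ctrl-D, and 31.8% of neutrophil UMIs in Eed iKO-D and 6.16% in Ctrl-D. For Cxcl1 in Eed iKO-D T cells the expected level, 136 CPM, lay above the 80.6 CPM measured, so the measure can overstate free RNA. Gated keratinocytes had to score at least 10 times their fibroblast score, and Col1a1 and Col3a1 are among the fibroblast markers. The keratinocyte share, and each expected keratinocyte level below, can therefore be too low. The other classes had to score 2-fold over the next class, and Krt5 and Krt14 are among the keratinocyte markers. Their shares and expected levels can thus be too low as well.

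The 5 ligand genes lie in 1 cluster of chemokine genes on mouse chromosome 5 in mm10 (GENCODE vM21), all on the plus strand. Cxcl5 (ENSMUSG00000029371) is at chr5:90759360-90761624, Ppbp (ENSMUSG00000029372) at chr5:90768518-90770063 and Cxcl3 (ENSMUSG00000029379) at chr5:90786103-90789600. Cxcl1 (ENSMUSG00000029380) is at chr5:90891241-90893115 and Cxcl2 (ENSMUSG00000058427) at chr5:90903871-90905938. The others are elsewhere, with Cxcr2 (ENSMUSG00000026180) at chr1:74153989-74161246, Csf3r (ENSMUSG00000028859) at chr4:126024550-126044440 and Csf3 (ENSMUSG00000038067) at chr11:98701263-98703629.

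The promoters of 4 of these ligand genes are shown because the ligands share a neighbourhood and, in part, the cells they were measured in. Each line gives the 70 bases from 100 to 31 bases before the RefSeq start (GRCm38.p6, plus strand), at chr5:90891145-90891214 for Cxcl1, chr5:90903799-90903868 for Cxcl2, chr5:90786001-90786070 for Cxcl3 and chr5:90768418-90768487 for Ppbp. Capitals mark GGGAATTTCCC, the longest run of letters that the Cxcl1, Cxcl2 and Cxcl3 windows share, which is of the kind NF-kB binds.
Cxcl1: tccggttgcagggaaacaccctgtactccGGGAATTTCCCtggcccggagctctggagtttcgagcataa
Cxcl2: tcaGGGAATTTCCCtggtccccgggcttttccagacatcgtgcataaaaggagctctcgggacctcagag
Cxcl3: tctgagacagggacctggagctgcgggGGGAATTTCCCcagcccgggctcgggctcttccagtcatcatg
Ppbp: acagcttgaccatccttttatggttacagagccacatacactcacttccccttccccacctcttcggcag
The run of 11 bases began 71 bases before the start in Cxcl1, 97 bases in Cxcl2 and 73 bases in Cxcl3. Searched on both strands, it was in 4 of all 32851 promoter windows of this length (0.0122%), which include these 3. It was taken from these windows, so its presence in them is a description and does not show binding. Ppbp, Cxcr2 and Csf3r had no match in this window.

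Over all kept cells the ligands and G-CSF were higher in the Eed iKO-D library. Cxcl1 was at 613 CPM in Eed iKO-D and 183 CPM in Ctrl-D, Cxcl2 at 856 and 252 CPM, Cxcl5 at 126 and 11.5 CPM, and Csf3 at 25.2 and 4.66 CPM. Ppbp had 2431 UMIs in Eed iKO-D and 16 UMIs in Ctrl-D. The smallest gap was that of Cxcl3, at 47.4 CPM in Eed iKO-D and 34.9 CPM in Ctrl-D. Cells with no class held 13.8% of Cxcl1 and 25.1% of Cxcl2 UMIs in Eed iKO-D, and 39.8% and 47.2% in Ctrl-D, and the class shares given next are of all UMIs in kept cells. These totals mix the level within each cell type with the number of cells of each type and their UMIs per cell. Levels and cell numbers are given apart below.

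The source of each ligand differed by gene and by library. In Eed iKO-D, fibroblasts held 59.0% of all Cxcl1 UMIs, against 18.4% in Ctrl-D, where keratinocytes held 36.3% (12.7% in Eed iKO-D). Fibroblasts also held 78.4% of Cxcl5 UMIs in Eed iKO-D and 46.8% in Ctrl-D. Cxcl2 came from myeloid cells in Eed iKO-D, with 27.3% of its UMIs in macrophages and 26.0% in neutrophils, against 4.32% and 10.3% in Ctrl-D. Keratinocytes held 24.5% of Cxcl3 UMIs in Eed iKO-D and 61.0% in Ctrl-D. Csf3 was split in Eed iKO-D, with 37.2% in keratinocytes, 34.9% in fibroblasts and 11.3% in blood endothelium, against 72.2%, 2.15% and 2.69% in Ctrl-D. Neutrophils held 59.4% of Cxcr2 and 52.3% of Csf3r UMIs in Eed iKO-D, and 31.4% of Cxcr2 and 285 of 475 Csf3r UMIs in Ctrl-D. Keratinocytes held 11.1% of Cxcr2 UMIs in Eed iKO-D and 47.6% in Ctrl-D, at the low level per cell given below. Fibroblasts, macrophages and neutrophils made up more of the gated Eed iKO-D cells and had more UMIs per cell there. The shares thus follow cell numbers and depth as well as levels.

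**Figure D1:**
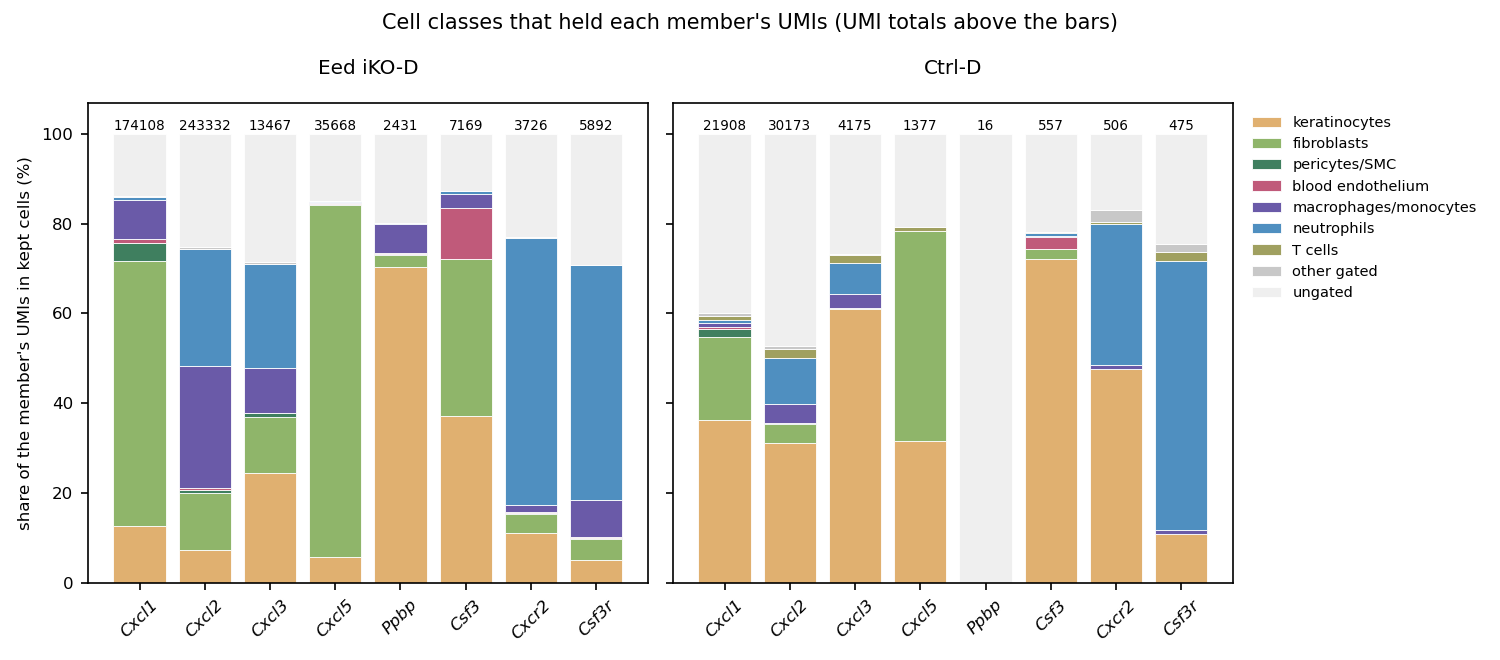
Stacked bars give the percent of each gene's UMIs in kept cells that fell in each class (y axis), by gene (x axis), in a left panel for Eed iKO-D and a right panel for Ctrl-D, with the total UMIs above each bar. In Eed iKO-D fibroblasts hold 59.0% of Cxcl1 and 78.4% of Cxcl5, and neutrophils 59.4% of Cxcr2.

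Within single classes, a gene was counted as apart between the libraries when its CPM differed at least 2-fold and it had at least 20 UMIs in both together. Keratinocytes, fibroblasts and neutrophils, which had 100 or more cells from both tumours, were compared in this way. In Eed iKO-D keratinocytes 4 of 8 members were higher (Cxcl5, Ppbp, Csf3 and Csf3r) and 0 lower. In Eed iKO-D fibroblasts 4 of 8 were higher (Cxcl3, Cxcr2, Csf3 and Csf3r) and 0 lower, where the 2 receptors rest on a few cells. In Eed iKO-D neutrophils 0 were higher and 4 lower (Cxcl1, Cxcl3, Csf3 and Csf3r) of the 7 with enough UMIs. Of all 19280 genes measured in keratinocytes 35.4% were apart, 26.3% higher and 9.09% lower. Of 16962 in fibroblasts 22.3% were apart, 10.9% higher and 11.4% lower. Of 9309 in neutrophils 25.1% were apart, 13.5% higher and 11.6% lower. The median log2 ratio of the members was 1.21 in keratinocytes, where all measured genes had 0.37. In fibroblasts it was 2.59, or 1.06 with genes at 0 UMIs in Ctrl-D set to their bound, where all genes had -0.04 and -0.09. In neutrophils it was -1.36, or -1.27 at the bound, where all genes had 0.16 and -0.27.

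**Figure D2:**
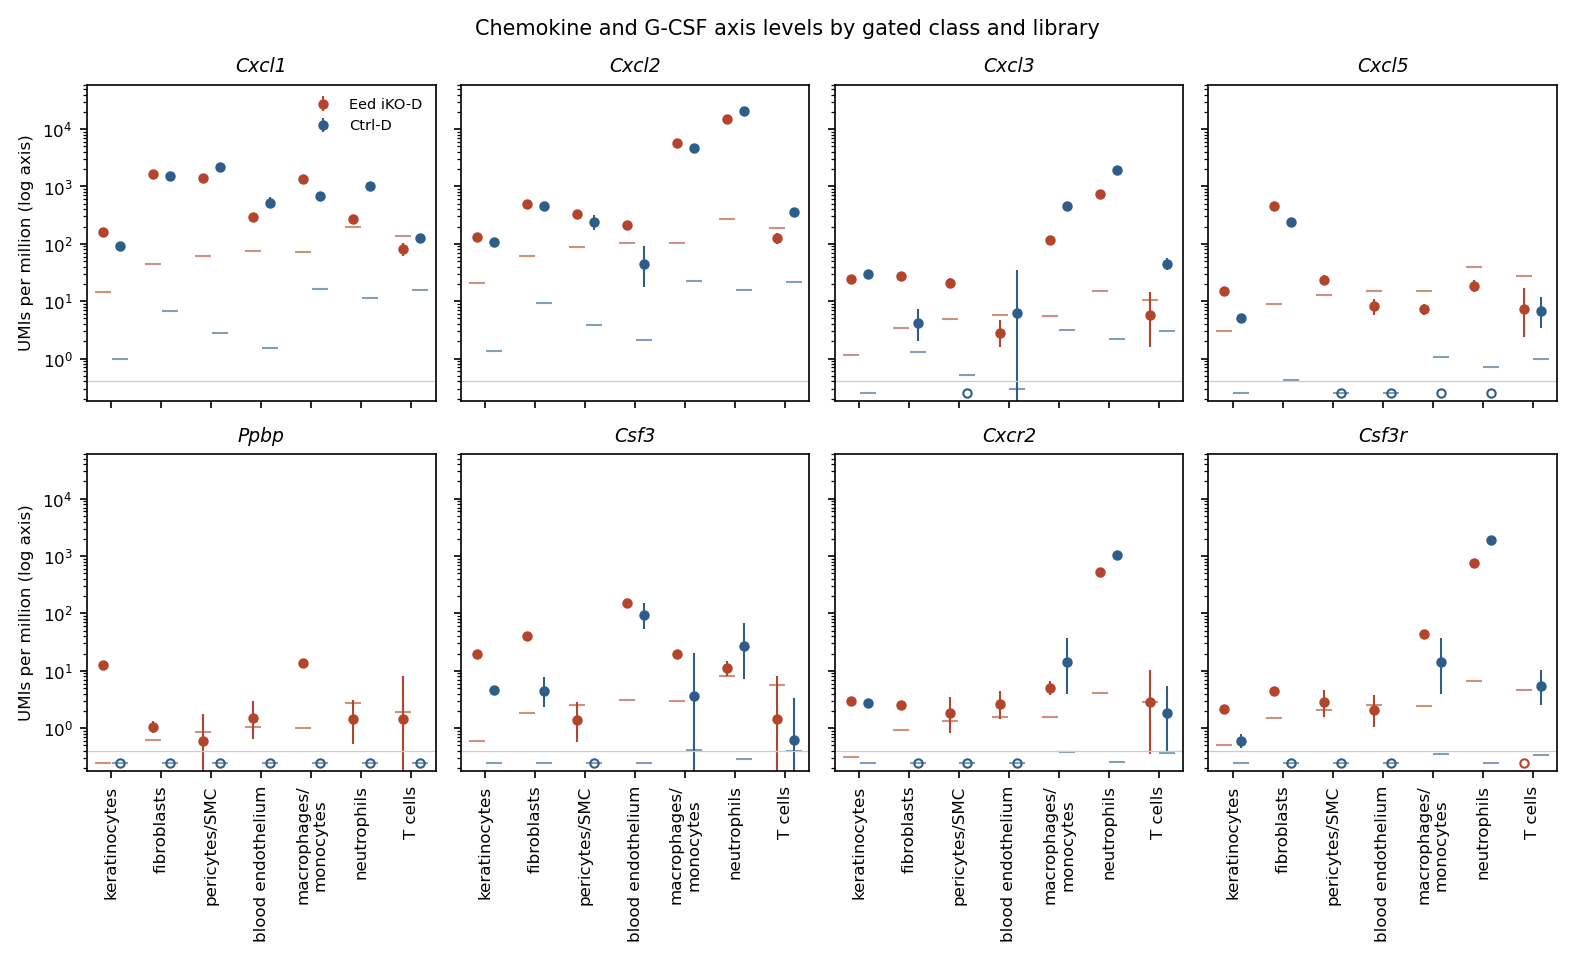
Dots give CPM on a log axis (y) for each gene in each class (x), with Eed iKO-D left of Ctrl-D and bars for exact Poisson 95% intervals; dashes mark the expected free RNA level, drawn at 0.25 where it is lower, and open circles below the grey line mark 0 UMIs. Cxcl1 is highest in fibroblasts and pericytes, Cxcl2 in neutrophils, and Cxcr2 and Csf3r in neutrophils.

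In fibroblasts, Cxcl1, a main neutrophil attractant of stroma, was abundant and close to equal in both libraries. It was at 1681 CPM in Eed iKO-D (102643 UMIs) and 1503 CPM in Ctrl-D (4036 UMIs), a ratio of 1.12 (1.08 to 1.15). The expected free RNA levels were 43.8 CPM in Eed iKO-D and 6.82 CPM in Ctrl-D. Cxcl2 was likewise close, at 504 CPM in Eed iKO-D and 463 CPM in Ctrl-D, a ratio of 1.09 (1.03 to 1.15), with expected levels of 61.2 and 9.39 CPM. The larger share of the library's Cxcl1 held by Eed iKO-D fibroblasts therefore did not stand beside a 2-fold gap in level. It stood beside 2395 gated cells in Eed iKO-D and 283 in Ctrl-D, at medians of 23923 and 8107 UMIs per cell. Fibroblasts held 21.5% of all UMIs in kept cells in Eed iKO-D and 2.24% in Ctrl-D.

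Cxcl5, which attracts neutrophils and is made by stromal and epithelial cells, was at 458 CPM in Eed iKO-D fibroblasts and 240 CPM in Ctrl-D fibroblasts, a ratio of 1.91 (1.76 to 2.06), with expected free RNA levels of 8.97 and 0.429 CPM. In Ctrl-D, 302 of the 645 UMIs came from 1 cell. Leaving out the 1% of cells with the most Cxcl5 UMIs in each library gave a ratio of 3.96. After each cell was thinned to 1000 UMIs, 15.2% of Eed iKO-D fibroblasts (13.8% to 16.7%, exact binomial) and 2.84% of Ctrl-D fibroblasts (1.23% to 5.51%) had a Cxcl5 UMI, and before thinning 40.3% and 8.83% did.

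Csf3 and Cxcl3 differed most among fibroblast ligands with UMIs in both libraries. Csf3 was at 41.0 CPM in Eed iKO-D fibroblasts (2504 UMIs) and 4.47 CPM in Ctrl-D fibroblasts (12 UMIs), a ratio of 9.17 (5.24 to 17.8), with expected free RNA levels of 1.80 and 0.173 CPM. A Csf3 UMI was found in 10.7% of Eed iKO-D fibroblasts and 1.41% of Ctrl-D fibroblasts, or 2.67% and 0.355% after thinning. Cxcl3 was at 27.5 CPM in Eed iKO-D fibroblasts (1677 UMIs) and 4.10 CPM in Ctrl-D fibroblasts (11 UMIs), a ratio of 6.70 (3.74 to 13.5), with expected free RNA levels of 3.39 and 1.30 CPM. Both Ctrl-D values rest on 12 UMIs or fewer.

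The receptors were low in fibroblasts. Csf3r was at 4.42 CPM in Eed iKO-D fibroblasts (270 UMIs), with an expected free RNA level of 1.48 CPM, and had 0 UMIs in Ctrl-D fibroblasts, which makes it at least 3.96-fold higher when the class total is set to 3 UMIs. Cxcr2 was at 2.54 CPM in Eed iKO-D fibroblasts (155 UMIs), with an expected level of 0.937 CPM, and had 0 UMIs in Ctrl-D fibroblasts, or at least 2.27-fold higher. In Eed iKO-D 24 of 2395 fibroblasts held 68.5% of Csf3r and 64.5% of Cxcr2 UMIs, and without the 1% of cells with the most UMIs the bounds were 1.26 and 0.812. With the free RNA level taken away they were 2.63 for Csf3r and 1.43 for Cxcr2, and both alternatives were chosen after the data were seen. The 14 neutrophil gate markers summed to 232 CPM in Eed iKO-D fibroblasts, where all 14 were detected, and 118 CPM in Ctrl-D fibroblasts, where 6 were. The part of neutrophil RNA in these receptor counts was not tested. Thinned to 1000 UMIs, 0.334% of Eed iKO-D fibroblasts and 0 of 282 Ctrl-D fibroblasts had a Csf3r UMI, where a count of 0 allows up to 1.06%.

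Fibroblasts with different markers carried different ligands. Cells gated on Pi16, Clec3b, Dpp4 and Cd248 numbered 670 in Eed iKO-D and 167 in Ctrl-D, and cells gated on Tnc, Col12a1, Postn and Adam12 numbered 1370 and 63. Cxcl5 was at 636 CPM in Eed iKO-D Tnc-type fibroblasts and 664 CPM in Ctrl-D Tnc-type fibroblasts, against 29.0 and 11.0 CPM in the Pi16-type cells of the same libraries. Within Tnc-type cells the libraries thus did not differ 2-fold, but 302 of the 626 Ctrl-D UMIs came from 1 cell. Tnc-type cells were 1370 of 2395 gated fibroblasts in Eed iKO-D and 63 of 283 in Ctrl-D. Cxcl1 was the other way round in Ctrl-D, at 893 CPM in Tnc-type and 2109 CPM in Pi16-type cells, and in Eed iKO-D the same subsets had 1528 and 1930 CPM. Csf3 was higher in Eed iKO-D in both subsets, at 50.5 CPM in Eed iKO-D and 8.04 CPM in Ctrl-D in Pi16-type cells (699 and 11 UMIs), and 27.8 and 1.06 CPM in Tnc-type cells (1095 UMIs and 1 UMI).

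**Figure D3:**
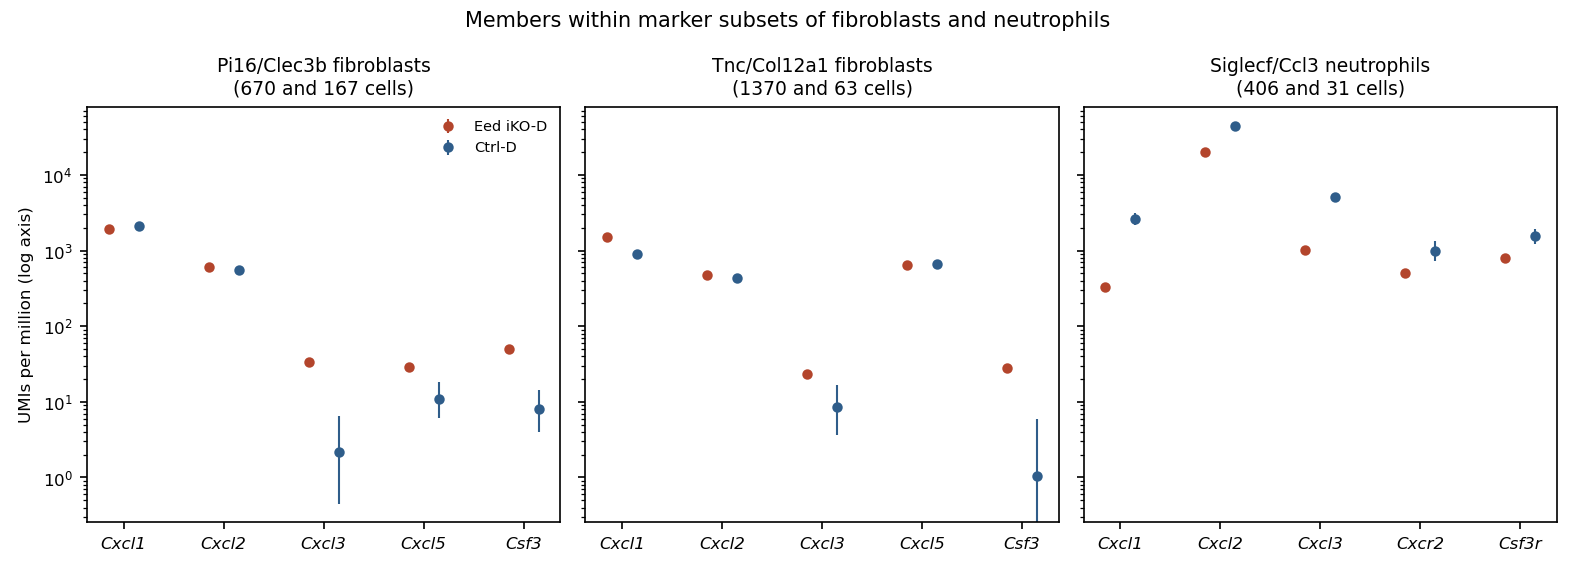
CPM (y, log axis) of 5 members each (x) in Pi16-type fibroblasts, Tnc-type fibroblasts and Siglecf-type neutrophils, with Eed iKO-D left of Ctrl-D and exact Poisson 95% intervals. Cxcl5 lies at 636 and 664 CPM in Tnc-type fibroblasts of Eed iKO-D and Ctrl-D and at 29.0 and 11.0 CPM in Pi16-type fibroblasts.

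In keratinocytes, the cells in which Cre is driven, Csf3 and Cxcl5 were higher in Eed iKO-D. Csf3 was at 19.5 CPM in Eed iKO-D keratinocytes (2667 UMIs) and 4.62 CPM in Ctrl-D keratinocytes (402 UMIs), a ratio of 4.23 (3.81 to 4.71), with expected free RNA levels of 0.606 and 0.0254 CPM. Cxcl5 was at 15.1 CPM in Eed iKO-D (2057 UMIs), with 3.02 CPM expected from free RNA, and 5.00 CPM in Ctrl-D (435 UMIs), with 0.0628 CPM expected, a ratio of 3.02 (2.72 to 3.35). Cxcl1 was at 162 CPM in Eed iKO-D and 91.3 CPM in Ctrl-D, a ratio of 1.77 (1.73 to 1.82), which was under 2-fold, with expected free RNA levels of 14.7 and 0.998 CPM. Cxcl2 was at 130 and 108 CPM in Eed iKO-D and Ctrl-D, and Cxcl3 at 24.2 and 29.2 CPM, with ratios of 1.20 (1.17 to 1.23) and 0.827 (0.785 to 0.872). Both were under 2-fold in either direction. Free RNA would give 20.6 and 1.38 CPM of Cxcl2 and 1.14 and 0.190 CPM of Cxcl3 in Eed iKO-D and Ctrl-D keratinocytes.

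The Ctrl-D values for Cxcl1, Cxcl2 and Cxcl3 turned on 1 cluster of cells. It held 670 cells, all from Ctrl-D, of which 395 passed the keratinocyte gate and 271 passed none, and its leading genes were Cck, Kirrel3, H19 and Pitx1. It expressed Krt14 at 5968 CPM, Krt5 at 3127 CPM and Epcam at 37.8 CPM, where gated Ctrl-D keratinocytes had 14654.5, 5516 and 319 CPM. It had Vim at 596 CPM against 44.8 CPM, and Trp63 at 284 CPM against 275 CPM. It held 49.6% of all Ctrl-D Cxcl1 UMIs, 60.5% of Cxcl2 and 72.7% of Cxcl3, and Cxcl3 was itself 12th among its leading genes, so its levels are a description. Without these cells the keratinocyte ratios of Eed iKO-D to Ctrl-D were 3.40 for Cxcl1, 4.92 for Cxcl2, 5.56 for Cxcl3, 10.6 for Cxcl5 and 5.46 for Csf3, and 7 members were apart rather than 4. With all 670 counted as keratinocytes the ratios were 0.999 for Cxcl1, 0.577 for Cxcl2, 0.647 for Cxcl3, 2.04 for Cxcl5 and 4.20 for Csf3. The direction for Csf3 and Cxcl5 held both ways, and that for Cxcl1, Cxcl2 and Cxcl3 depended on these cells.

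Cxcl3, Csf3 and Cxcl5 sat in few keratinocytes, and Cxcl1 and Cxcl2 in more. In Eed iKO-D 14.9% of unthinned keratinocytes had a Cxcl3 UMI, 10.4% a Csf3 UMI and 12.9% a Cxcl5 UMI, against 50.5% for Cxcl2. In Ctrl-D, 1 cell held 699 of 2545 Cxcl3 UMIs and 45 cells held 91.4%. For Cxcl5, 1 Eed iKO-D cell held 430 of 2057 UMIs and 41 cells held 66.7%, and 45 Ctrl-D cells held 89.9%. For Csf3, 41 Eed iKO-D cells held 51.9% and 45 Ctrl-D cells held 90.8%. The counting intervals of these ratios do not cover this spread between cells. Thinned to 1000 UMIs, 13.5% of Eed iKO-D keratinocytes (12.5% to 14.6%) and 4.93% of Ctrl-D keratinocytes (4.31% to 5.60%) had a Cxcl1 UMI, against 6.02% and 1.06% of T cells, which should lack it. Median depths before thinning were 20702.5 and 16885 UMIs in keratinocytes and 7181 and 3098 UMIs in T cells, and the unthinned keratinocyte shares were 57.2% and 21.0%. For Cxcl2 the shares were 12.5% and 3.66% in keratinocytes and 13.3% and 3.71% in T cells, so no expression is read from the keratinocyte share of Cxcl2 alone. T cells are not a matched background, since free RNA was 22.2% of their UMIs in Eed iKO-D and 8.55% in Ctrl-D, and 4 Ctrl-D T cells held 78.3% of their Cxcl2 UMIs. The Cxcl2 level in keratinocytes was 6.31 times the expected free RNA level in Eed iKO-D and 78.7 times in Ctrl-D. The keratinocyte gate can make that expected level too low. A Csf3 UMI was found in 1.03% of thinned Eed iKO-D keratinocytes and 0.384% of Ctrl-D keratinocytes, and in 0 of 83 and 0 of 377 T cells, counts of 0 that allow shares of up to 3.61% and 0.796%.

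**Figure D4:**
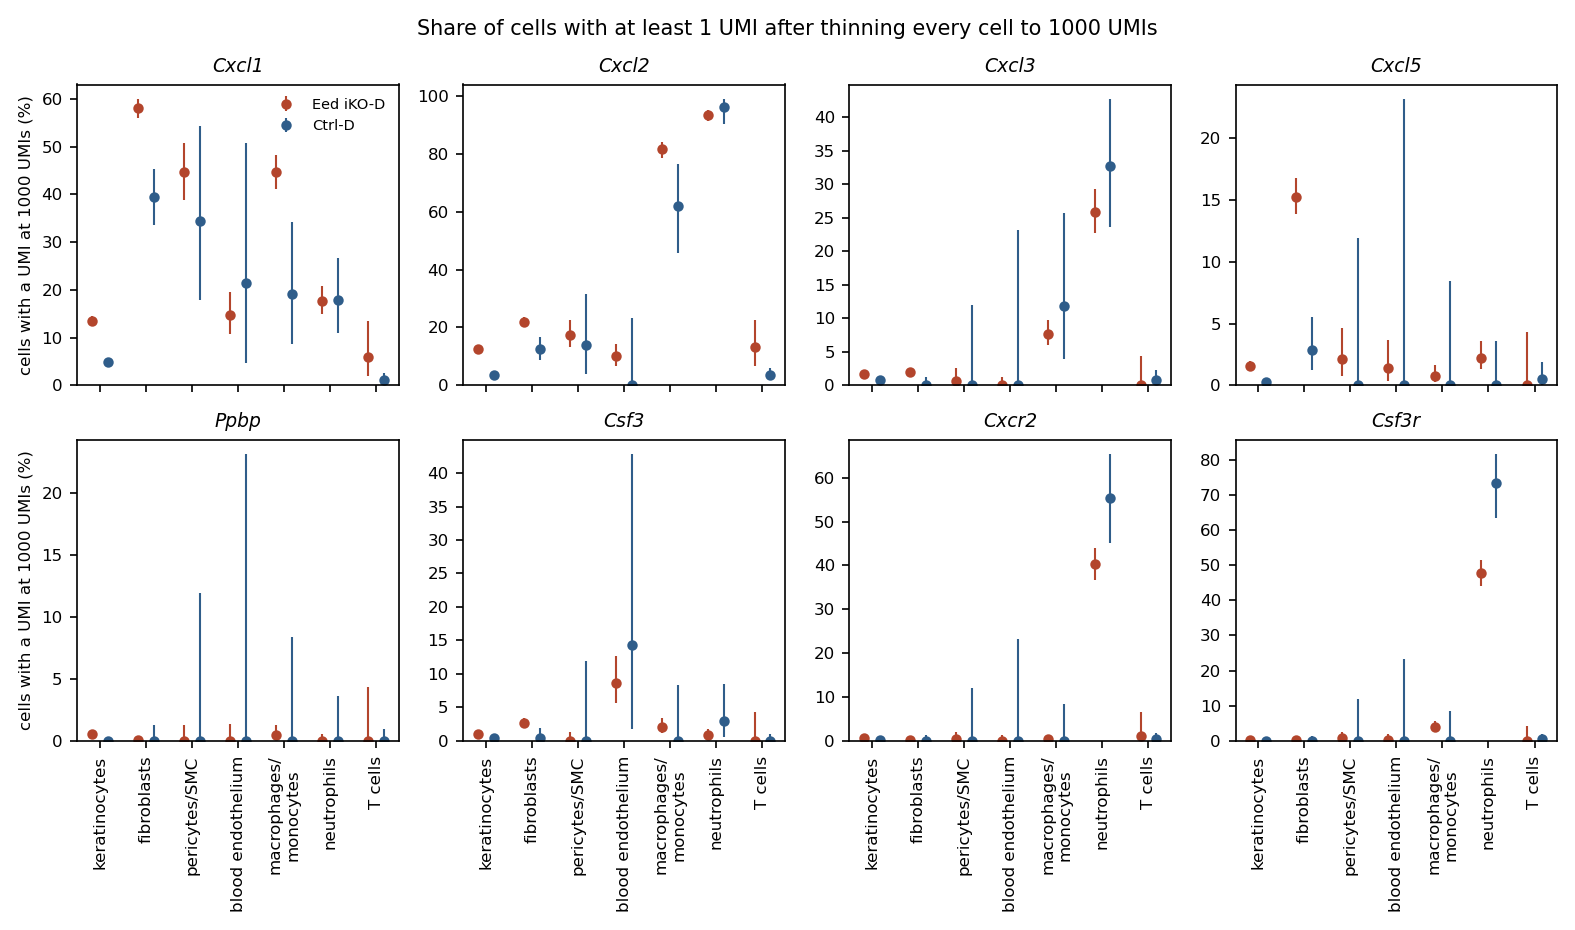
Percent of cells with at least 1 UMI of a gene (y) after thinning every cell to 1000 UMIs, by class (x), with Eed iKO-D left of Ctrl-D and exact binomial 95% intervals; the y scale differs by gene. Cxcl1 is found in 58.0% of Eed iKO-D and 39.4% of Ctrl-D fibroblasts, and Csf3r in 47.8% and 73.3% of neutrophils.

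Basal-gated and suprabasal-gated keratinocytes differed in which genes they carried. Csf3 lay in basal cells, at 20.8 CPM in Eed iKO-D and 5.24 CPM in Ctrl-D, against 0 UMIs in 53 suprabasal Eed iKO-D cells and 2 UMIs (0.291 CPM) in 343 suprabasal Ctrl-D cells. Cxcr2, which keratinocytes are also known to express, was at 8.30 CPM in suprabasal and 1.70 CPM in basal Ctrl-D cells, and at 4.07 CPM (8 UMIs) and 2.93 CPM in Eed iKO-D. Over the class it did not differ 2-fold, at 3.02 CPM in Eed iKO-D (412 UMIs) and 2.77 CPM in Ctrl-D (241 UMIs), a ratio of 1.09 (0.928 to 1.28), with expected free RNA levels of 0.315 and 0.0231 CPM. Csf3r was low, at 2.18 CPM in Eed iKO-D keratinocytes (298 UMIs) and 0.598 CPM in Ctrl-D keratinocytes (52 UMIs), a ratio of 3.66 (2.72 to 5.01), with expected levels of 0.498 and 0.0216 CPM. Those UMIs came from 111 Eed iKO-D cells and 19 Ctrl-D cells. The neutrophil markers summed to 161 CPM in Eed iKO-D keratinocytes and 105 CPM in Ctrl-D keratinocytes, with 14 of 14 detected in both, and the part of neutrophil RNA in the Csf3r counts was not tested.

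Ppbp, the precursor of platelet basic protein, had 1713 UMIs in Eed iKO-D keratinocytes (12.6 CPM) and 0 in Ctrl-D keratinocytes, which makes it at least 364-fold higher against a floor of 3 UMIs. That bound rests on the gate and on few cells. All 16 Ctrl-D Ppbp UMIs were in cells with no class, and in clusters named keratinocyte there were 2002 UMIs in Eed iKO-D and 14 in Ctrl-D, a ratio of 102 (60.5 to 186). Without the 1% of gated keratinocytes with the most Ppbp it was at least 14.5-fold higher. The gated UMIs came from 103 cells, of which 1 held 627 and another 217, and the 10 highest held 86.2%. The cell with 627 UMIs was suprabasal-gated, and the value describes a few cells of 1 library and not the class. The 41 cells with the most Ppbp, chosen by that gene, had Krt14 at 18262 CPM and Krt5 at 5450 CPM, against 16429 and 5960 CPM in the other 4033 keratinocytes of the library. They had Krt1 at 8.84 against 208 CPM and Krt10 at 13.0 against 148 CPM, at median depths of 48518 and 20449 UMIs. They also had Pf4, the gene of platelet factor 4, at 97.3 CPM against 4.07 CPM. In summed UMIs, Cxcl2 was at 575 against 123 CPM, Cxcl3 at 203 against 21.6 CPM and Cxcl5 at 145 against 13.2 CPM. Cxcl1 and Csf3 went the other way, at 93.6 against 163 CPM and 12.0 against 19.7 CPM. How these UMIs spread over the 41 cells was not tested. After thinning, 21 keratinocytes of the library had a Ppbp UMI and 4048 had none. Of these, 9.52% and 12.5% had Cxcl2, and 14.3% and 13.5% had Cxcl1, so on these few cells neither gene kept its direction. Shares for Cxcl3 were 4.76% and 1.68%, for Cxcl5 14.3% and 1.48%, and for Csf3 0% and 1.04%. Of 6 platelet markers, Gp9, Gp1bb, Tubb1, Treml1 and Gp5 had 0 UMIs in the 41 cells and Itga2b had 4 UMIs. Macrophages had 154 Ppbp UMIs in Eed iKO-D and 0 in Ctrl-D, where 45 cells were gated.

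Neutrophils had the highest levels of both receptors among the classes, and in Eed iKO-D these levels were lower than in Ctrl-D. Csf3r was at 744 CPM in Eed iKO-D neutrophils (3081 UMIs) and 1905 CPM in Ctrl-D neutrophils (285 UMIs), a ratio of 0.391 (0.346 to 0.443). Cxcr2 was at 535 CPM in Eed iKO-D neutrophils (2214 UMIs) and 1063 CPM in Ctrl-D neutrophils (159 UMIs), a ratio of 0.503 (0.428 to 0.595), just short of 2-fold. Expected free RNA levels were 6.60 and 0.245 CPM for Csf3r and 4.17 and 0.261 CPM for Cxcr2 in Eed iKO-D and Ctrl-D. After thinning, Csf3r was found in 47.8% of Eed iKO-D neutrophils (44.1% to 51.6%) and 73.3% of Ctrl-D neutrophils (63.5% to 81.6%), and Cxcr2 in 40.4% (36.7% to 44.1%) and 55.4% (45.2% to 65.3%). Without thinning the order was the reverse, with Csf3r in 88.7% and 81.5% and Cxcr2 in 79.5% and 69.4%, at median depths of 5179 and 1294.5 UMIs. Thinned T cells had a Cxcr2 UMI in 1.20% and 0.531%.

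Free RNA moved with these neutrophil ratios. Markers of keratinocytes summed to 7525 CPM in Eed iKO-D neutrophils and 1938 CPM in Ctrl-D neutrophils, with 16 and 15 of 16 detected, and fibroblast markers to 2392 and 33.4 CPM, with 12 and 4 of 12 detected. The neutrophil gate's own markers summed to 9382 CPM in Eed iKO-D and 13462 CPM in Ctrl-D. With the free RNA level taken away and the rest scaled up, an alternative chosen after the data were seen, Csf3r was at 1082 CPM in Eed iKO-D and 2030 CPM in Ctrl-D, a ratio of 0.533, and Cxcr2 at 779 and 1132 CPM, a ratio of 0.688. Both kept their direction, and neither was then 2-fold apart. This rests on the share taken from keratins: with the share taken from Col1a1 and Col3a1, 16.7% in Eed iKO-D and 2.57% in Ctrl-D, the ratio was 0.455 for Csf3r, 0.442 for Cxcl3 and 0.586 for Cxcr2. Which estimate is nearer to the true free RNA was not tested.

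Neutrophils were also the richest class in Cxcl2, a chemokine that they release themselves. Cxcl2 was at 15300 CPM in Eed iKO-D neutrophils (63323 UMIs) and 20774 CPM in Ctrl-D neutrophils (3108 UMIs), a ratio of 0.736 (0.710 to 0.764), and with free RNA taken away and the rest scaled up it was at 22043 and 22122 CPM. Free RNA would give 272 and 15.5 CPM of Cxcl2 and 15.1 and 2.15 CPM of Cxcl3 in Eed iKO-D and Ctrl-D neutrophils. Cxcl3 was at 754 CPM in Eed iKO-D neutrophils (3119 UMIs) and 1972 CPM in Ctrl-D neutrophils (295 UMIs), a ratio of 0.382 (0.339 to 0.432), or 0.516 on the rescaled values. Of the 108 Ctrl-D neutrophils 39 had a Cxcl3 UMI, and the 10 highest held 77.6% of them. After thinning, the shares of cells with Cxcl3 were 25.9% (22.7% to 29.3%) in Eed iKO-D and 32.7% (23.7% to 42.7%) in Ctrl-D, with overlapping intervals. Cxcl1 was at 271 CPM in Eed iKO-D neutrophils, with an expected free RNA level of 195 CPM, and 1036 CPM in Ctrl-D neutrophils, with an expected 11.3 CPM, a ratio of 0.262 (0.221 to 0.312). In Ctrl-D, 2 cells held 57.4% of those 155 UMIs, and 17.7% of thinned Eed iKO-D and 17.8% of thinned Ctrl-D neutrophils had a Cxcl1 UMI. Csf3 had 46 UMIs in Eed iKO-D neutrophils (11.1 CPM, expected 8.03) and 4 in Ctrl-D neutrophils (26.7 CPM), and its ratio of 0.416 had an interval of 0.152 to 1.59 that includes 1. Cxcl5 had 77 UMIs in Eed iKO-D neutrophils, 18.6 CPM where 39.9 CPM was expected from free RNA, and 0 UMIs in Ctrl-D neutrophils.

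Neutrophil subsets spread widely. Cells gated on Siglecf, Ccl3, Ccl4, Cstb and Hilpda numbered 406 in Eed iKO-D and 31 in Ctrl-D. They had Cxcl2 at 20340 and 44492 CPM, Cxcl3 at 1029 and 5042 CPM and Csf3r at 807 and 1547 CPM. The 31 Ctrl-D cells held 47200 UMIs in all, of which 2100 were Cxcl2, 238 Cxcl3 and 73 Csf3r. Free RNA was not taken away here. A second set, gated on the granule genes Camp, Ngp, Ltf and Lcn2 of maturing neutrophils, numbered 56 in Eed iKO-D and 0 in Ctrl-D. These 56 cells had Cxcl2 at 2976 CPM, Csf3r at 308 CPM and Cxcr2 at 503 CPM. Of thinned Eed iKO-D neutrophils with Csf3r, 49.4% also had Cxcr2, against 32.1% of those without, and in Ctrl-D these were 58.1% and 48.1%.

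**Figure D5:**
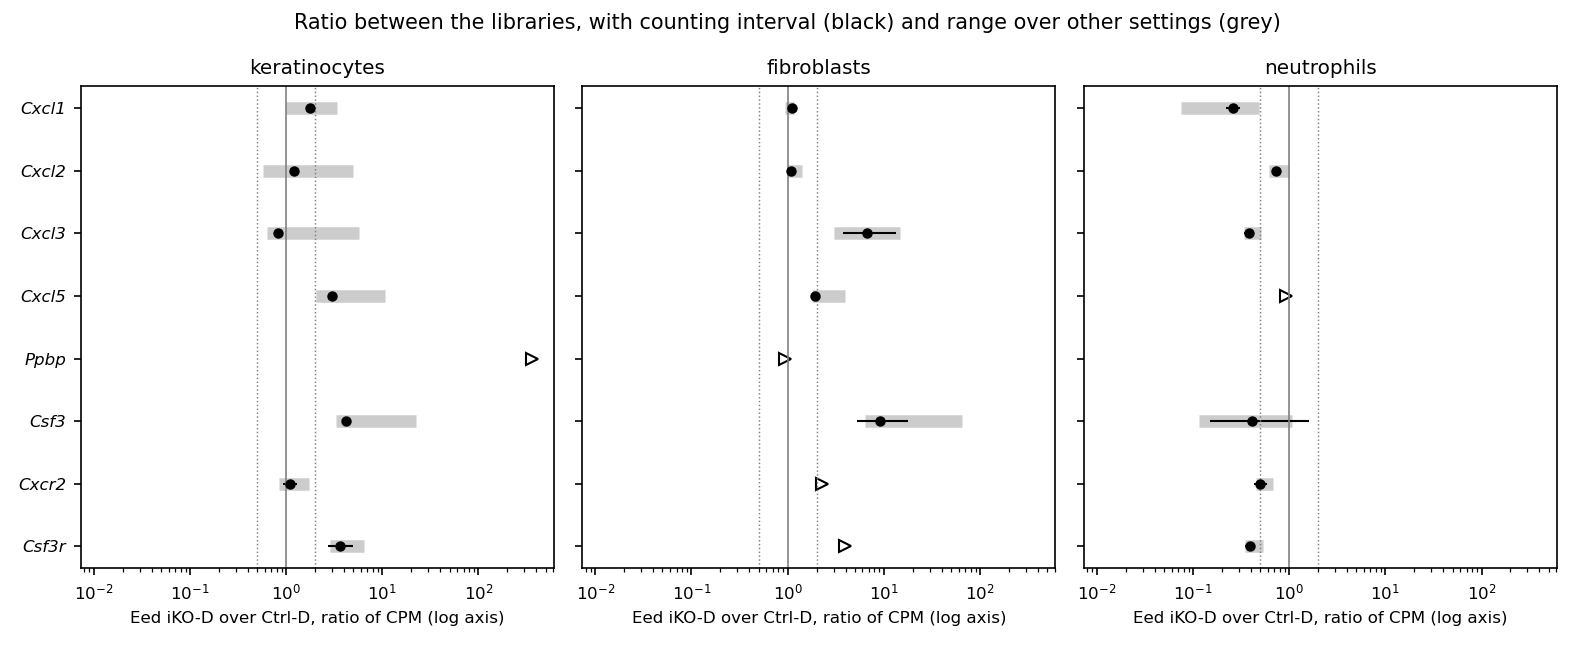
Ratio of CPM in Eed iKO-D to Ctrl-D (x, log axis) for each member in keratinocytes, fibroblasts and neutrophils (y): black points with counting 95% intervals, open triangles for lower bounds against 0 UMIs, grey bars for the range over the alternative settings, and dotted lines at 0.5 and 2. Csf3 lies right of 2 in keratinocytes and fibroblasts under every setting run, and the Cxcl1, Cxcl2 and Cxcl3 bars in keratinocytes span 1 or reach it.

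Macrophages, endothelium and pericytes had under 100 gated cells in Ctrl-D, so their values stand side by side without a call. Macrophages had Cxcl2 at 5808 CPM in Eed iKO-D and 4685 CPM in Ctrl-D, Cxcl1 at 1337 and 672 CPM, Cxcl3 at 118 and 453 CPM and Csf3r at 43.5 and 14.4 CPM, with 805 and 45 cells. Free RNA would give 102 and 22.9 CPM of Cxcl2, 72.7 and 16.6 CPM of Cxcl1, 5.62 and 3.17 CPM of Cxcl3 and 2.46 and 0.360 CPM of Csf3r in Eed iKO-D and Ctrl-D macrophages. In Ctrl-D macrophages 1 cell held 100 of 187 Cxcl1 UMIs and 1 cell held 99 of 126 Cxcl3 UMIs. Eed iKO-D cells gated as monocytes (126 cells) had Cxcl3 at 362 CPM, against 66.7 CPM in the 586 gated on C1qa, C1qb and C1qc, while Cxcl2 was at 6380 and 5694 CPM in these subsets. Blood endothelium had the highest Csf3 level of the classes described here in both libraries, at 152 CPM in 277 Eed iKO-D cells (809 UMIs) and 93.8 CPM in 14 Ctrl-D cells (15 UMIs), where free RNA would give 3.06 and 0.0394 CPM. Of the 277 Eed iKO-D cells 53 had a Csf3 UMI, and 3 cells held 39.1% of the 809 UMIs. Pericytes and smooth muscle cells had Cxcl1 at 1393 CPM in Eed iKO-D and 2158 CPM in Ctrl-D, near the fibroblast levels, with expected free RNA levels of 62.2 and 2.75 CPM.

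Genes known to act up- or downstream of the members were read from lists set for this axis. The list counts here and below stand beside the shares of all measured genes. Those were 26.3% higher and 9.09% lower in keratinocytes, 10.9% and 11.4% in fibroblasts, and 13.5% and 11.6% in neutrophils. Among upstream cytokines, 4 of 11 measured were higher and 2 lower in Eed iKO-D keratinocytes, and 6 of 9 were higher and 0 lower in Eed iKO-D fibroblasts. Csf2, the gene of granulocyte-macrophage colony-stimulating factor, was at 11.5 CPM in Eed iKO-D fibroblasts, where free RNA would give 0.254 CPM, and had 0 UMIs in Ctrl-D fibroblasts, or at least 10.3-fold higher. Il1b, an inducer of these chemokines, was at 73.9 CPM in Eed iKO-D fibroblasts, with an expected free RNA level of 32.1 CPM, and had 0 UMIs in Ctrl-D fibroblasts, or at least 66.2-fold higher. Osm, the gene of the cytokine oncostatin M, was at 1.54 CPM in Eed iKO-D keratinocytes, with 0.458 CPM expected, and 0.0919 CPM in Ctrl-D keratinocytes, and Il1f6 (interleukin 36 alpha) at 0.271 and 3.10 CPM. Il1b in neutrophils, named after its values were seen, was at 8734 CPM in Eed iKO-D and 9438 CPM in Ctrl-D. The neutrophil gate markers summed to 232 CPM in Eed iKO-D fibroblasts and 118 CPM in Ctrl-D fibroblasts, against 9382 CPM in Eed iKO-D neutrophils. The part of neutrophil RNA in the fibroblast Il1b count was not tested.

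Receptors and signalling genes for these cytokines differed in few cases. Of 10 upstream receptors, 2 were higher in Eed iKO-D keratinocytes, 1 in fibroblasts and 0 in neutrophils, where 2 were lower. Osmr, the oncostatin M receptor, was at 311 CPM in Eed iKO-D fibroblasts and 151 CPM in Ctrl-D fibroblasts. The common beta chain gene Csf2rb was at 259 CPM in Eed iKO-D neutrophils and 608 CPM in Ctrl-D neutrophils, and at 2.30 and 0.655 CPM in keratinocytes. The neutrophil list counts and levels here and below were not corrected for free RNA, 31.8% of neutrophil UMIs in Eed iKO-D and 6.16% in Ctrl-D. Taking it away moved the Csf3r ratio in neutrophils from 0.391 to 0.533, as given above. Of 12 NF-kB and related signalling genes, 0 were higher and 1 lower in keratinocytes, 2 higher and 1 lower in fibroblasts, and 0 higher and 3 lower of 11 measured in neutrophils. Tnfaip3, an NF-kB feedback inhibitor, was at 454 CPM in Eed iKO-D fibroblasts and 219 CPM in Ctrl-D fibroblasts. Cebpd, a transcription factor of the acute phase response, was lower in both Eed iKO-D keratinocytes, at 17.7 CPM against 103 CPM, and Eed iKO-D fibroblasts, at 247 CPM against 642 CPM.

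Genes acting below Csf3r and in neutrophil movement were lower in some cases in neutrophils, without correction for free RNA. Of 9 measured G-CSF receptor signalling genes, 0 were higher and 3 lower in Eed iKO-D neutrophils, among them Jak2 at 334 CPM against 916 CPM in Ctrl-D. In fibroblasts Jak2 was at 260 CPM in Eed iKO-D and 108 CPM in Ctrl-D, 1 of 2 higher and 0 lower of 8 measured, and in keratinocytes 0 of 8 were 2-fold apart. Of 10 adhesion genes in neutrophils, 1 was higher and 3 lower, with Icam1 at 232 CPM in Eed iKO-D and 856 CPM in Ctrl-D, and the higher one, Cd177, is also a gate marker. Cxcr4, the receptor that holds neutrophils in marrow, was at 153 CPM in Eed iKO-D neutrophils and 628 CPM in Ctrl-D neutrophils, the 1 lower gene with 0 higher among 8 measured chemoattractant receptors. In keratinocytes 6 of 9 such receptors were higher and 1 lower, and C5ar1, a complement receptor of myeloid cells, was at 2.05 CPM in Eed iKO-D, with 0.716 CPM expected from free RNA, and 0.161 CPM in Ctrl-D. In fibroblasts 3 of 9 were higher and 2 lower, and C5ar1 was at 3.49 CPM in Eed iKO-D, with 2.13 CPM expected, and 0 UMIs in Ctrl-D.

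The other CXC chemokines went both ways. Cxcl9, an interferon-induced T cell attractant, was at 1.38 CPM in Eed iKO-D keratinocytes and 34.9 CPM in Ctrl-D keratinocytes, and at 6.29 and 26.8 CPM in fibroblasts. Cxcl10 was at 10.9 CPM in Eed iKO-D neutrophils (45 UMIs) and 53.5 CPM in Ctrl-D neutrophils (8 UMIs). Of the other CXC chemokines 2 of 8 were higher and 3 lower in keratinocytes, 1 of 7 and 2 in fibroblasts, and 1 of 5 and 1 in neutrophils. Adhesion genes were higher in 7 of 9 cases and lower in 1 in keratinocytes, and higher in 3 of 9 and lower in 0 in fibroblasts. In keratinocytes these included the endothelial selectins, with Sele at 0.843 CPM in Eed iKO-D, with 0.254 CPM expected from free RNA, and 0.0230 CPM in Ctrl-D, with 0.00337 CPM expected. Blood endothelial markers summed to 38.9 CPM in Eed iKO-D keratinocytes and 16.1 CPM in Ctrl-D keratinocytes, with 10 of 10 detected in both and Pecam1 at 20.5 and 2.26 CPM, and their part in the adhesion genes was not tested. Genes of leukotriene B4 synthesis were higher in 2 of 3 cases in keratinocytes, 1 of 3 in fibroblasts and 2 of 3 in neutrophils and lower in 0, with Alox5 at 51.0 CPM in Eed iKO-D neutrophils and 6.68 CPM (1 UMI) in Ctrl-D neutrophils. Stress genes of tissue dissociation, read as a check on handling, were higher in 1 and lower in 1 of 15 in keratinocytes, in 0 and 0 of 15 in fibroblasts, and in 4 and 1 of 15 in neutrophils. Their part in the ligand values was not tested.

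Over 13 pools of a class in a library with at least 50 cells, the 3 genes with the level pattern most like each of 6 members were found among 13527 genes by Pearson correlation of log2(CPM + 1). Cxcl2 went with Nfkbiz (0.963), Mapkapk2 (0.956) and Ehd1 (0.952), and Cxcl1 with Dram1 (0.919), Hgf (0.888) and Zfp36 (0.887). Cxcl3 went with Themis2 (0.937), Fpr2 (0.916) and Tyrobp (0.913), and Cxcl5 with Thbs2 (0.977), Medag (0.963) and Mmp3 (0.958). For the receptors, Cxcr2 went with Cstdc4 (0.988), Mirt2 (0.984) and Fpr1 (0.979), and Csf3r with Il1bos (0.990), Cyp4f18 (0.988) and Themis2 (0.987). Ppbp and Csf3 were not put to this comparison. The pools come from 2 libraries and share depth, free RNA and cell type, so these values only describe where the genes were found.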

How the data were processed

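The authors deposited 1 filtered 10x matrix of raw UMI counts per library (v2 3' chemistry, per the labels' protocols). Cell Ranger is given as version 7.1.0 per the file headers, 2.1.0 per the labels' protocols and 8.0 per the submitters' processing notes, with mm10 as the build. Cells with at least 500 genes and at most 15% mitochondrial UMIs were kept. Classes came from scaled marker scores with at least 3 markers and a lead over other classes; the scoring limits were set after marker levels were seen. The lead was 2-fold over the next class, and keratinocytes also needed a 10-fold lead over the fibroblast score. Cells without these leads got no class but stayed in the library totals. No doublet caller was run. Names rebuilt this way may differ from the study's own. UMIs were summed per class and library, without replicates, and ratios carry exact conditional binomial 95% intervals. The members and lists were chosen with earlier results of these data known. Named list genes are the 2 with the largest change per list and class with at least 50 UMIs, of which some are printed; the 3 most similar genes are named per member. Comparisons planned in macrophages, endothelium and T cells were not made, because a library had under 100 gated cells. Clusters (Leiden, resolution 1, scanpy 1.11.5) checked the gates. The interval and ratio code was tested on simulated data. Intervals and floors (3 UMIs) cover counting error only. Cxcl11 was not matched in the files. Alternatives changed the gates, cell filters, scaling, free RNA, UMI minimum and the highest cells.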

Additional observations from a re-analysis of the deposited data

Results flagged for a closer look

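For 3 members the ratio between the libraries was at least 2-fold in opposite directions in different cell classes; the difference between classes was not tested. The Eed iKO-D to Ctrl-D ratio of Cxcl3 was 6.70 in fibroblasts and 0.382 in neutrophils, where thinned cell shares had overlapping intervals. For Csf3 it was 4.23 in keratinocytes, 9.17 in fibroblasts and 0.416 in neutrophils, where the interval includes 1 and Ctrl-D had 4 UMIs. For Csf3r it was 3.66 in keratinocytes, at least 3.96 in fibroblasts, where Ctrl-D had 0 UMIs, and 0.391 in neutrophils.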

How the results depend on the processing

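Of 9 ratios at least 2-fold apart with UMIs in both libraries, 6 stayed so in the same direction under each alternative run, and 1 reversed: Csf3 in neutrophils was 1.08 without the 1% of cells with the most UMIs of the gene. The count of members apart fell to 2 in neutrophils, against 4, with the free RNA level taken away and the rest scaled up, and was 7 in keratinocytes, against 4, without the ligand-rich Ctrl-D cluster; both alternatives were chosen after seeing the data, as were the setting with all of that cluster, the 5000-UMI minimum, the removal of shared barcodes and the collagen-based free RNA share, under which 4 members were apart in neutrophils. For genes at 0 UMIs in Ctrl-D, bounds under settings also chosen later ran from 0.812 to 2.27 for Cxcr2 and from 1.26 to 5.32 for Csf3r in fibroblasts, and from 14.5 to 364 for Ppbp in keratinocytes, where counting by cluster gave 14 Ctrl-D UMIs and a ratio of 102, and 2 Ctrl-D UMIs and a ratio of 4.50 (1.23 to 37.4) for Cxcr2. Csf3 ratios ran from 3.27 to 22.2 in keratinocytes and from 6.42 to 65.2 in fibroblasts, the highest without the 1% of cells with the most UMIs. Cxcl3 in keratinocytes ran from 0.639 to 5.68, and Csf3r in neutrophils from 0.350 to 0.533. Neutrophils gave no value under the stricter gate, the 1000-gene filter or the 5000-UMI minimum, each of which left under 100 Ctrl-D cells, and suprabasal keratinocytes alone gave none, with 53 Eed iKO-D cells. No paired analysis was possible because there was 1 library per group. The causes of these shifts were not tested.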
